A study of Ovis aries with 40 samples.

Results

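The collagens and tenascin C of sheep longissimus dorsi, the long muscle of the back, were followed from mid-gestation to 2 months after birth. Members were the probes, other than controls, whose gene name in the scanner files is TNC or starts with COL and a digit, or whose description contains collagen or tenascin. The probe that an additional file of the study annotates as TNC was included as well, because 0 probes carry that name in the scanner files. The rule gave 19 of 15008 probes. Of these, 16 stand for 10 collagen chains, 1 for TNC and 2 for MMP-1, an interstitial collagenase that is a member only because its description contains the word collagen. All 19 were well above background on at least 1 array and were tested.

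The RNA of each of 40 animals was measured on its own 1-colour Agilent sheep array. Purebred Texel fetuses of 5 gestational ages, from 70 d over 85, 100 and 120 to 135 d, formed groups T70 to T135 (16 fetuses) and purebred Ujumqin fetuses of the same ages formed groups U70 to U135 (15 fetuses). Ujumqin lambs were taken at birth and at 1 and 2 months (Ubirth, U1m and U2m, 9 lambs). Each group held 3 animals except T100, which held 4. Ewes had been synchronized with hormones and inseminated with semen of their own breed, and fetuses were removed by caesarean section. The protocol gives 3 ewes per breed and stage, so that some T100 fetuses may share a dam, which the labels do not name. All T120 fetuses were male and all U120, U135 and U2m animals were female, so that sex cannot be told apart from group there. After birth there is no Texel group.

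Collagens are the main structural proteins outside the cell. Types I, II, III and V build fibrils, types XII and XVI attach to fibrils, type IV forms the sheet of the basement membrane around each muscle fibre, and type VI forms beaded filaments beside it. Tenascin C is a glycoprotein of the matrix of growing and injured tissue and, in muscle, is best known at the junction with tendon. Collagenases cut fibrillar collagen.

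Every collagen has at least 1 stretch in which glycine is the first of each 3 amino acids, which is what lets 3 chains wind into a helix. In the probe letters this appears as GGN, a codon for glycine, spaced 9 bases apart. A series of at least 6 such codons was found on 24 of the 15008 probes (0.160%) read 5′ to 3′, and on 0 read on the opposite strand. The count was 7 of the 19 members, which are shown here with the glycine codons in capitals. The rest of the 24 probes fall outside the member rule, and whether any of them measures a collagen was not tested. Since the repeat is common to collagens, it does not tell which chain a probe measures.
COL3A1 (A_70_P006991): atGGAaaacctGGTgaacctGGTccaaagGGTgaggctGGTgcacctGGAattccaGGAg
COL3A1 (A_70_P048191): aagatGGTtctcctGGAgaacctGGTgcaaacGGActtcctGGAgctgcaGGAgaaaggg
COL2A1: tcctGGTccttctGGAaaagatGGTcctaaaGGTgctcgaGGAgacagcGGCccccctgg
COL4A1 (A_70_P047940): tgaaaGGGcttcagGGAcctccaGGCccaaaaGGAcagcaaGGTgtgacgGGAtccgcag
COL4A1 (A_70_P047961): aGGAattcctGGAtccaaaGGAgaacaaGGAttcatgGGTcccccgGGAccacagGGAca
COL4A1 (A_70_P047986): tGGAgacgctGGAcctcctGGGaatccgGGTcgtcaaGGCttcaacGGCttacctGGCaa
COL4A2: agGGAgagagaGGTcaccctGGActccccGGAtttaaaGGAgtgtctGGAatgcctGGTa

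The other collagen probes among the members lie outside such a stretch or hold fewer than 6 of these codons. The probes of COL1A1, of TNC and of 1 pair that shares most of its bases are shown because several results turn on them.
COL1A1: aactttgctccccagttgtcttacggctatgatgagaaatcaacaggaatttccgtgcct
TNC: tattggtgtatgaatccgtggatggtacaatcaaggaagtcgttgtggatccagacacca
COL3A1 (A_70_P016306): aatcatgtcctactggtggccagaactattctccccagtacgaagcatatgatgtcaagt
COL3A1 (A_70_P016307): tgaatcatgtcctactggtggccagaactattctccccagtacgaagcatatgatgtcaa
The last 2 are offset by 2 bases and share 58, and the MMP-1 probes are offset by 1 base and share 59, so that each pair is close to 1 measurement made in duplicate. Each probe is 60 bases long. The scanner files give no genome position for the members, and the exon or intron of each probe was not analysed here. Both COL6A1 probes carry that gene name while their description gives the alpha 3 chain of type VI, so which of these chains they measure is not settled.

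Values are log2 normalized intensities, on which 1 unit is a doubling. They compare groups for 1 probe and not 1 probe with another. A member was called changed between groups at an adjusted p under 0.05 with a difference of 2-fold or more. In whole muscle, fewer cells of a type and less RNA per cell cannot be told apart.

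Markers were looked up by gene name or by a symbol in brackets in the description, so that probes named otherwise were missed. The study names MYH1 and ACTN3 probes on this array, for instance, which this search did not find. Of 22 muscle fibre markers, 3 were found by symbol, and MYLPF, a fast myosin light chain, had group means of 18.4 to 18.8. The others, the muscle transcription factors MYOD1 and MYOG, are given with the other markers. Among cartilage markers, the 2 probes of ACAN, the main cartilage proteoglycan, were well above background on 2 and 1 of the 40 arrays. No tendon marker and no endothelial marker of the lists was found by symbol, so that these tissues were not tested as a source. The fibroblast marker DCN was measured on 2 probes and is described with the matrix genes. Median processed signal per array ran from 217.6 to 708.3, and 79.3% to 90.9% of spots were well above background.

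Across the 5 Texel stages, 15 of the 19 members varied by the F test of limma at an adjusted p under 0.05, where 52% of all tested probes did. Across the 8 Ujumqin stages 19 of 19 varied, where 79.7% of all tested probes did. The Texel exceptions were COL1A1, COL2A1, COL4A2 and 1 of the COL4A1 probes (A_70_P047986), with adjusted p of 0.0696, 0.0964, 0.588 and 0.223.

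From 70 to 135 d, 8 of the 19 members fell in Texel, where 11.5% of all tested probes did, and 5 of 19 fell in Ujumqin, where 10.8% did. COL1A1, COL5A2, COL12A1, COL16A1 and TNC were called lower in both breeds, and in Texel 3 of the 4 COL3A1 probes were called lower as well. COL4A3 was the 1 member that rose in each breed, where 10.8% of all tested probes rose in Texel and 10.4% in Ujumqin. Without U135 replicate 1 the Ujumqin count of lower members was 8, and without U70 replicate 2 the count of higher members was 0. The median difference over the 19 members was -0.84 in Texel and -0.53 in Ujumqin, against -0.05 and -0.04 over all tested probes.

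No slide held arrays of both 70 and 135 d in the same breed. With slide as a fixed term, 0 members were called lower and 0 higher in either breed. With slide as a random term the counts were 8 and 5 lower. Some neighbouring stages did share a slide, and the differences within it are given with COL12A1, COL5A2, COL3A1, COL4A3, TNC and MMP-1.

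**Figure D1:**
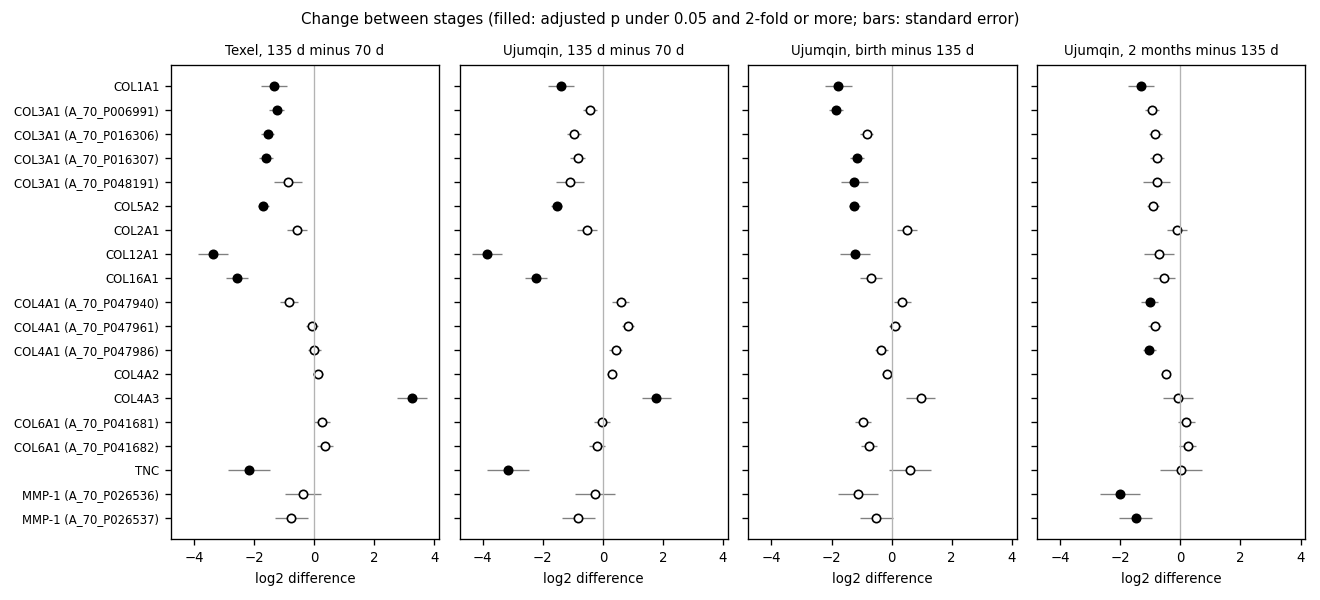
Difference in log2 normalized intensity between 2 stages for each of the 19 members, on a horizontal axis common to the 4 panels, with standard errors as bars and filled points for members called changed. COL12A1 had the lowest value of both 135 d minus 70 d panels, and the only filled points above 0 were those of COL4A3.

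COL12A1, the type XII chain, which binds to the surface of collagen fibrils, had the largest fall among the members from 70 to 135 d in both breeds. It measured 15.45, 16.45 and 15.86 in T70 and 12.33, 11.62 and 13.75 in T135. The Ujumqin fetuses had 15.53, 16.30 and 16.17 in U70 and 12.43, 11.81 and 12.16 in U135. All fetuses of 135 d lay below all fetuses of 70 d. The difference was -3.35 ± 0.50 (SE) in Texel (10.2-fold, adjusted p = 2.63e-06) and -3.86 ± 0.50 in Ujumqin (14.6-fold, adjusted p = 3.03e-07). Each later fetal stage had a lower mean than the one before it, from 15.92 over 14.84, 14.00 and 12.75 to 12.57 in Texel and, from 85 d on, 15.05, 14.37, 13.02 and 12.13 in Ujumqin. None of the single steps was called, with adjusted p from 0.0687 to 0.937.

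Within slides COL12A1 also ran lower at the later stage. The mean of T85 was 1.09 below that of T70 on slide 1, and the difference of U85 and U70 was -0.95 on slide 2. That of T120 and T100 was -0.90 on slide 3, and that of U120 and U100 was -1.15 on slide 4. With slide as a fixed term the 135 d minus 70 d difference was -3.26 in Texel and -3.86 in Ujumqin, with adjusted p of 0.267 and 0.103.

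COL16A1, the type XVI chain, which also sits on fibrils, fell by 2.56 ± 0.37 in Texel (5.92-fold, adjusted p = 1.71e-06) and by 2.22 ± 0.37 in Ujumqin (4.67-fold, adjusted p = 1.65e-05). It measured 7.76, 8.12 and 6.91 in T70 and 5.14, 4.81 and 5.15 in T135. The corresponding values were 6.39, 7.88 and 8.13 in U70 and 5.42, 4.98 and 5.33 in U135. The groups did not overlap in either breed. Under normexp background correction, which lifts dim signals by an offset, the Texel difference shrank to just 2-fold and the Ujumqin difference to -0.86. Both still passed adjustment, but the Ujumqin value no longer reached 2-fold.

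COL5A2, a chain of type V collagen, which sits inside type I fibrils and limits their width, had the lowest median spread between replicates of the members, at an SD of 0.151 over the groups. It measured 12.87, 13.32 and 13.16 in T70 and 11.51, 11.05 and 11.71 in T135. In Ujumqin the values were 12.65, 12.96 and 13.32 in U70 and 11.50, 11.33 and 11.50 in U135. The fall was 1.69 ± 0.19 units in Texel (3.23-fold, adjusted p = 1.92e-08) and 1.53 ± 0.19 in Ujumqin (2.90-fold, adjusted p = 1.21e-07). Its step from 100 to 120 d passed adjustment in both breeds, at -0.66 in Texel and -0.88 in Ujumqin, with adjusted p of 0.0111 and 0.00972, though neither reached 2-fold. Within slides this step was -0.63 on slide 3 in Texel and -0.98 on slide 4 in Ujumqin.

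COL1A1, the main chain of type I collagen, measured 10.84, 11.58 and 9.97 in T70 and 9.53, 8.76 and 10.08 in T135. It measured 9.44, 11.28 and 11.09 in U70 and 9.30, 8.83 and 9.50 in U135. The groups overlapped in both breeds. The differences of -1.34 ± 0.44 (adjusted p = 0.0142) and -1.40 ± 0.44 (adjusted p = 0.012) were called but rested on single fetuses. Without T70 replicate 2 or T135 replicate 2 the adjusted p was 0.114 or 0.0991, and without U70 replicate 2, U70 replicate 3 or U135 replicate 2 it was 0.0906, 0.0689 or 0.0604.

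COL3A1, whose type III fibrils are the fine mesh of the muscle's connective tissue, did not fall steadily. Group means of its 4 probes were highest at 100 d in Texel, at 10.81, 10.95, 11.01 and 12.48. In T135 the means were 9.21, 9.16, 9.18 and 10.04. Between 120 and 135 d in Texel, probes A_70_P016306 and A_70_P016307 were called lower, by 1.11 and 1.05 units, with adjusted p of 0.0042 and 0.00818. Within slide 4, where 1 T135 array lay with 2 T120 arrays, both differences were -0.73. Together with 1 MMP-1 probe these were the 3 of 19 members called lower at that step, where 1.19% of all tested probes were. The 2 COL3A1 probes among them overlap and are close to 1 measurement.

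Over 70 to 135 d the 4 COL3A1 probes changed by -1.25, -1.55, -1.60 and -0.87 in Texel and by -0.43, -0.96, -0.85 and -1.09 in Ujumqin. The first 3 were called in Texel, with adjusted p of 0.000109, 1.77e-06 and 2.37e-06. In Ujumqin none of the 4 was called, and the 2 overlapping probes passed adjustment without reaching 2-fold, with adjusted p of 0.00101 and 0.00486. The probe A_70_P048191 spread most between replicates, with a median SD of 0.573 against 0.195 to 0.239 for the other 3. In T120 it measured 12.02, 10.15 and 10.71. Its Texel difference from 70 to 135 d was 0.50, not past adjustment, with slide as a fixed term. Its Ujumqin difference was past the threshold under 75th percentile scaling (-1.14, adjusted p = 0.0481), with array weights (-1.24, adjusted p = 0.0144) and with sex as a covariate (-1.40, adjusted p = 0.0148).

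COL2A1, the cartilage collagen, was well above background on every array and was not called in either breed. It measured 7.87, 8.54 and 7.30 in T70, 7.26, 7.31 and 7.42 in T135, 6.95, 8.21 and 8.30 in U70 and 7.47, 7.26 and 7.14 in U135. The differences were -0.58 ± 0.33 and -0.53 ± 0.33, with adjusted p of 0.168 and 0.216. Under 75th percentile scaling the Texel value was -0.92, which passed adjustment without reaching 2-fold (adjusted p = 0.0327). The Ujumqin value passed with array weights (-0.69, adjusted p = 0.0455) and without U70 replicate 1 (-0.96, adjusted p = 0.0238), also short of 2-fold. The cell type behind this level was not tested.

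**Figure D2:**
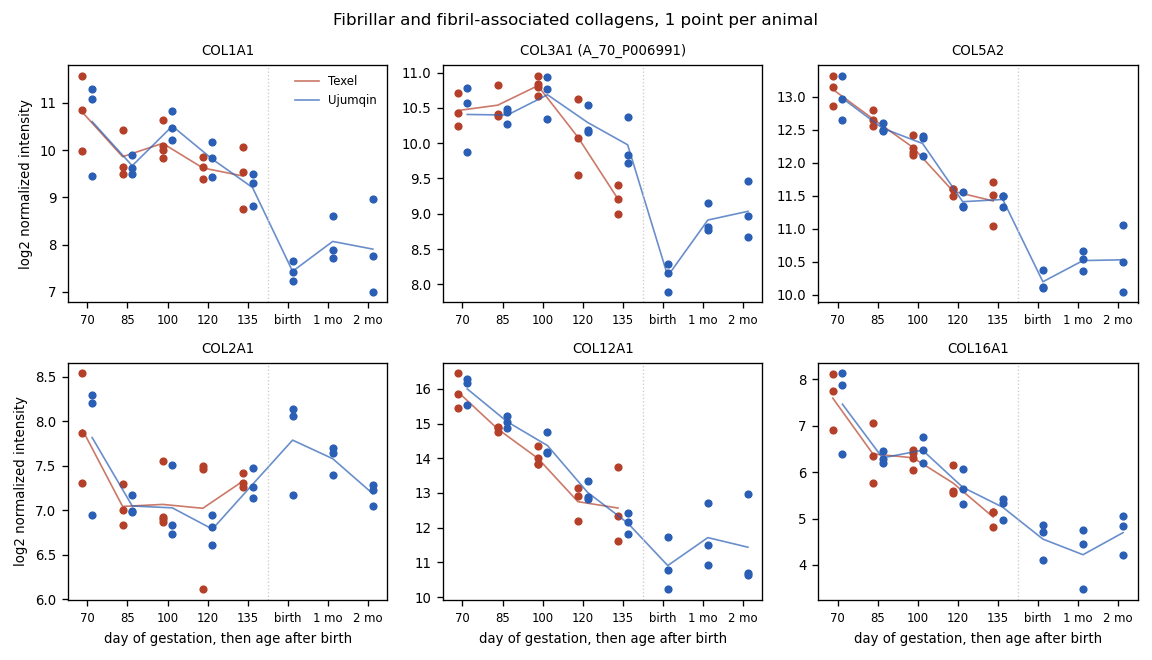
Log2 normalized intensity of 6 fibrillar and fibril-associated collagen probes in each animal, by breed and stage, with lines through group means and a dotted line at birth. COL12A1 and COL5A2 slope down through gestation in both breeds, COL3A1 stays high to 100 d, and COL2A1 has no steady slope.

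At birth COL1A1, COL3A1, COL5A2 and COL12A1 were lower still, and each of their probes had its lowest group mean there. At 1 month the means were 8.07 for COL1A1, 10.52 for COL5A2 and 11.71 for COL12A1. At birth they had been 7.44, 10.20 and 10.91. COL3A1 on A_70_P006991 and A_70_P016307 passed adjustment as higher at 1 month than at birth, without reaching 2-fold. From 135 d to birth, 6 of the 19 members were called lower, where 9.34% of all tested probes were, and 0 higher, where 10.4% were. At an unadjusted p under 0.05 with 2-fold the same 6 were found and 0 higher. COL1A1 measured 7.42, 7.24 and 7.65 at birth, below every U135 fetus, a difference of -1.77 ± 0.44 (3.42-fold, adjusted p = 0.00184). COL5A2 measured 10.37, 10.11 and 10.11 at birth, a difference of -1.25 ± 0.19 (adjusted p = 5.96e-06), and the 4 COL3A1 probes differed by -1.86, -0.83, -1.15 and -1.25. Of these, the second did not reach 2-fold. COL12A1 measured 10.22, 10.77 and 11.73 at birth, a difference of -1.23 ± 0.50 that was just past the threshold, at an adjusted p of 0.0472. That call was lost without Ubirth replicate 1 or 2 or any 1 of the U135 fetuses, at adjusted p from 0.0529 to 0.206. It was also lost with a floor of 16 (0.0502), array weights (0.0523), slide as a random term (0.0656) or as a fixed term (0.749), and the replicate block (0.0548). The call on the COL3A1 probe A_70_P048191 was lost without Ubirth replicate 2, Ubirth replicate 3 or U135 replicate 1, at adjusted p of 0.0945, 0.0636 and 0.15.

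The 3 birth arrays shared a slide with T70 and T85 and none with U135, so that slide and stage cannot be told apart for this step. With slide as a fixed term the COL1A1 difference was -2.16 at an adjusted p of 0.461 and that of COL5A2 -1.41 at 0.212. Scaling by the 75th percentile in place of quantiles shifted the median of all probes from -0.01 to 0.22 for this step and from -0.05 to -0.18 for 135 d minus 70 d in Texel. No call on COL1A1, COL3A1 or COL5A2 was lost by it.

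Arrays of U135 and U2m all lay on slide 5, so that the comparison of 2 months with 135 d is free of slide. Among the 19 members 5 were called lower, where 8.07% of all tested probes were, and 0 higher, where 6.59% were, and 0 were higher at an unadjusted p either. Without U2m replicate 1, U2m replicate 3 or U135 replicate 1 the count of lower members was 1, 2 or 3. The 5 were COL1A1, 2 of the 3 COL4A1 probes and both MMP-1 probes. The MMP-1 pair was at or near background in both groups, so that these 2 calls stand for no measured fold. Without the 2-fold minimum 11 members passed, all of them lower, where 17.9% of all tested probes passed in that direction, which added all but 1 of the COL3A1 probes, COL5A2, COL4A2 and the last COL4A1 probe. The median difference over the 19 members was -0.79, against 0.01 over all tested probes.

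COL1A1 measured 7.75, 8.96 and 7.01 at 2 months, a difference from 135 d of -1.30 ± 0.44 (adjusted p = 0.0224). The call was lost without U2m replicate 1 or 3 or U135 replicate 1 or 3, at adjusted p from 0.0618 to 0.191, and U135 replicate 1 was the highest of its group for 8 of the 9 fibrillar and fibril-associated probes. U2m replicate 2 was the highest of its group for 16 of the 19 members and for 8 of the 9 fibrillar and fibril-associated probes. Its COL12A1 level was 12.97, where the other lambs had 10.70 and 10.65. With this lamb the COL12A1 difference from 135 d was -0.70 (adjusted p = 0.304), and without it -1.46 (adjusted p = 0.0182). What set this lamb apart was not tested. COL5A2 at 10.49, 11.05 and 10.05 was below 135 d in all 3 lambs, by 0.92 ± 0.19 (adjusted p = 0.000364).

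Type IV collagen followed another course. COL4A1 on the probe A_70_P047940 measured 10.60, 10.88 and 10.99 in T70 and 10.56, 10.30 and 9.09 in T135. In Ujumqin it was 10.44, 9.82 and 9.95 in U70, 10.61, 11.05 and 10.34 in U135 and 9.59, 9.75 and 9.62 in U2m. The fetal difference was -0.84 ± 0.28 in Texel (adjusted p = 0.0178) and 0.60 ± 0.28 in Ujumqin (adjusted p = 0.095), and neither reached 2-fold. The other probes, A_70_P047961 and A_70_P047986, differed by -0.06 and 0.00 in Texel. In Ujumqin A_70_P047961 rose by 0.84 ± 0.19 (adjusted p = 0.000816), short of 2-fold, and A_70_P047986 differed by 0.42 (adjusted p = 0.136). The Texel value of A_70_P047940 did not pass without T70 replicate 3 or T135 replicate 3, and its sign turned with slide as a fixed term.

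At 2 months the 3 COL4A1 probes were lower than at 135 d by 1.02 ± 0.28, 0.85 ± 0.21 and 1.03 ± 0.22, with adjusted p of 0.00629, 0.00281 and 0.000634. For the second of these, U2m replicate 3 was left out as an outlier spot, and with outlier spots kept it did not pass adjustment. It did not reach 2-fold in either case. From birth to 1 month A_70_P047940 fell by 1.21 ± 0.28 (adjusted p = 0.0035), the 1 member called lower at that step, where 3.7% of all tested probes were called lower. COL4A2, which pairs with COL4A1 in the common type IV molecule, moved less. Its means ran from 8.58 to 8.81 over the Texel stages and from 8.65 to 9.16 over the Ujumqin stages, and it was lower at 2 months than at 135 d by 0.49 ± 0.15 (adjusted p = 0.0148). That value did not pass without U2m replicate 1 or U135 replicate 3, at adjusted p of 0.0669 and 0.0542.

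COL4A3, a chain of the type IV network best known from kidney and lung, rose. It measured 3.33, 3.03 and 4.56 in T70 and 7.04, 6.98 and 6.68 in T135. In U70 the values were 5.07, 4.17 and 6.38 and in U135 6.35, 7.07 and 7.55. The groups overlapped in Ujumqin by 1 fetus of each stage. The rise was 3.26 ± 0.49 in Texel (9.59-fold, adjusted p = 3.27e-06) and 1.78 ± 0.49 in Ujumqin (3.44-fold, adjusted p = 0.00442). In T70, 2 of 3 arrays were well above background, and normexp correction reduced the differences to 0.70 and 0.56, both still passing adjustment. Without U70 replicate 2 the Ujumqin value was 1.26 at an adjusted p of 0.0581.

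Most of the Texel rise lay between 100 and 120 d, where COL4A3 went from 5.17, 4.89, 4.35 and 4.08 to 6.31, 7.23 and 7.45. It was the 1 member called higher at that step (2.38 ± 0.46, adjusted p = 0.000906), where 3% of all tested probes were. The difference within slide 3 was 1.87. All T120 fetuses were male, while T100 held both sexes. At birth the level was 7.12, 7.76 and 8.98, and the difference from 135 d was not called, though it passed under 75th percentile scaling (1.28, adjusted p = 0.0327).

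COL6A1 moved within a narrow range in the fetus. Its 2 probes had means of 6.18 to 7.11 and 6.71 to 7.65 over the 10 fetal groups. At birth they were lower than at 135 d, by 0.95 ± 0.27 (adjusted p = 0.00529) and 0.75 ± 0.27 (adjusted p = 0.0247), without reaching 2-fold. Both values failed to pass under 75th percentile scaling (-0.58 and -0.39) and under normexp correction (-0.24 and -0.24). At 2 months they were 6.95 and 7.37, close to the fetal level.

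**Figure D3:**
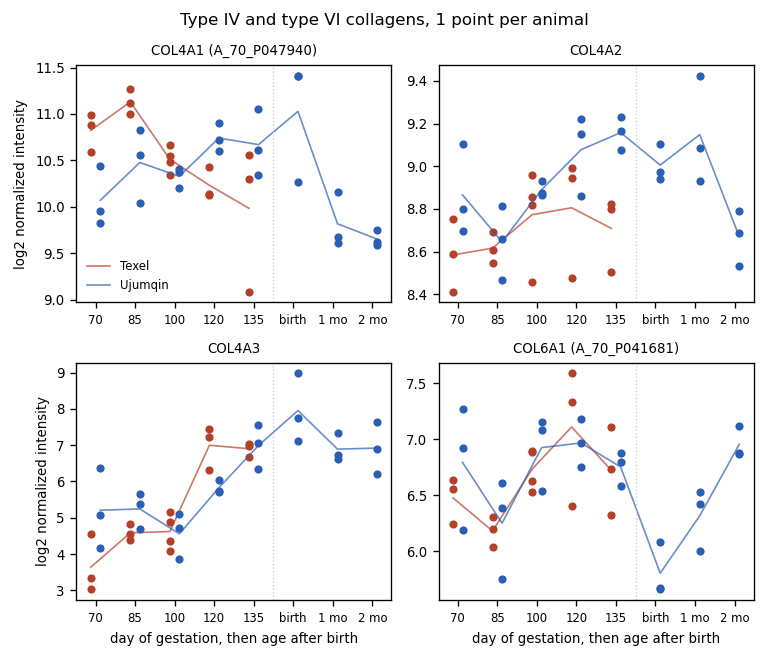
Log2 normalized intensity of type IV and type VI collagen probes in each animal, by breed and stage, with lines through group means and a dotted line at birth. COL4A3 rises to about 7 by 135 d in both breeds, while COL4A1, COL4A2 and COL6A1 stay within narrower ranges.

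TNC measured 5.89, 7.09 and 6.86 in T70, 6.78, 6.90 and 7.02 in T85, and 5.19, 5.77, 5.88 and 5.35 in T100. It then measured 3.89, 4.45 and 3.85 in T120 and 4.17, 3.74 and 5.42 in T135. In Ujumqin it measured 6.97, 6.20 and 7.18 in U70, 7.66, 7.98 and 6.66 in U85 and 6.64, 6.95 and 6.92 in U100. The fetuses of 120 d had 5.55, 3.80 and 4.86 and those of 135 d had 3.84, 3.38 and 3.67. Every fetus of 70 and 85 d thus lay above every fetus of 120 and 135 d, of which the highest was 5.55 in U120. T100 had a mean between those of the earlier and later Texel stages, while U100 lay among the earlier Ujumqin values. The breeds part here at 100 d, the stage through whose list the probe became a member, so that this is a description.

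The order of the group means was U85, T85, U100, U70, T70, T100, U120, T135, Ubirth, T120, U2m, U135 and U1m. Neighbours in this order overlapped in range everywhere except between T70 and T100. From 70 to 135 d TNC changed by -2.17 ± 0.69 in Texel (4.51-fold, adjusted p = 0.0121), with 1 of the 3 T135 arrays well above background. In Ujumqin 0 of 3 U135 arrays were well above background, and the level at 70 d was at least 8.90-fold higher (fitted difference -3.15 ± 0.69, adjusted p = 0.000511).

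The Texel call was lost without T70 replicate 2 (-1.93, adjusted p = 0.0517) or T135 replicate 2 (-1.82, adjusted p = 0.0618). Under normexp correction the differences were -0.49 and -0.69, with adjusted p of 0.00324 and 0.00011. With slide as a fixed term they were -3.37 and -4.31, with adjusted p of 0.471 and 0.217. Within slides the level was lower at 120 d than at 100 d by 1.77 on slide 3 in Texel and by 2.19 on slide 4 in Ujumqin.

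After birth TNC measured 3.42, 5.30 and 4.01 at birth, 4.16, 3.95 and 2.28 at 1 month and 3.02, 6.26 and 1.65 at 2 months. Of these arrays 1, 2 and 1 of 3 were well above background. The highest value at 2 months was U2m replicate 2, the lamb that was also high for the fibrillar collagens. The difference from 135 d was 0.01 ± 0.69 (adjusted p = 0.993), and leaving out single animals moved it from -1.29 to 1.01.

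The probe was annotated as TNC in a list that the study made of its differences between breeds at 100 d on these arrays, so the difference at that stage is a description. T100 ran from 5.19 to 5.88 and U100 from 6.64 to 6.95, a difference of -1.29 with no overlap. The study's own qPCR of TNC went the other way at 100 d, with the higher level in Texel. At the other 4 stages the difference was -0.17, -0.53, -0.67 and 0.81 and the breeds overlapped.

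The 5 named probes outside the collagens and TNC whose 13 group means correlated most with TNC, among 1259, were BCAT1, CSN2, PON2, MMP-2 and PHF14, with Pearson r from 0.935 to 0.956. For COL5A2, the fibrillar chain taken for the highest mean intensity over all arrays, which served for the choice alone, they were MMP-2, SMO, AT2, CCND2 and TIMP-1, with r from 0.960 to 0.985. These values share the arrays and the course over stages, and are a description.

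MMP-1, the collagenase, had its highest group means at 100 d in both breeds. The probe A_70_P026537 measured 5.13, 5.32 and 6.17 in T70, 8.41, 8.45 and 9.08 in T85 and 8.86, 9.46, 9.28 and 9.88 in T100. It then measured 6.91, 6.36 and 7.45 in T120 and 3.52, 4.84 and 5.99 in T135. The Ujumqin values were 3.61, 3.30 and 4.56 in U70, 7.58, 7.03 and 8.52 in U85, 9.62, 9.60 and 8.56 in U100, 7.89, 7.91 and 8.60 in U120, and 1.48, 3.74 and 3.79 in U135. Every fetus of 85 d lay above every fetus of 70 d of its breed, and the values of 135 d overlapped those of 70 d in both breeds.

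From 70 to 85 d the 2 MMP-1 probes rose by 3.00 ± 0.59 and 3.11 ± 0.55 in Texel (adjusted p = 0.0102 and 0.00289). In Ujumqin they rose by 3.36 ± 0.59 and 3.88 ± 0.55 (adjusted p = 0.00413 and 0.000284). They were the 2 of 19 members called higher at this step in each breed, where 0.318% and 0.173% of all tested probes were called higher. The 2 probes overlap and are close to 1 measurement. In U70 replicate 2 neither probe was well above background, so that the size of the Ujumqin rise depends on a level near background. Within slides the rises were 2.78 and 2.89 on slide 1 in Texel and 3.36 and 3.88 on slide 2 in Ujumqin, where all 6 fetuses lay on that slide.

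In Texel both probes fell from 100 to 120 d. The changes were -2.57 ± 0.55 and -2.46 ± 0.51 (adjusted p = 0.00248 and 0.00178), and the COL3A1 probe A_70_P048191 was called lower beside them (-1.52 ± 0.42, adjusted p = 0.0159). Within slide 3, where 1 T120 array lay with 3 T100 arrays, the difference of that COL3A1 probe was -0.38. That made 3 of 19 members lower, where 2.5% of all tested probes were. In Ujumqin the same step gave -1.06 and -1.13, with adjusted p of 0.551 and 0.448. Between 120 and 135 d in Ujumqin, A_70_P026537 was at least 21.1-fold lower, since 0 of 3 U135 arrays were well above background (adjusted p = 7.06e-07), and A_70_P026536 fell by 3.96 ± 0.66 (adjusted p = 0.000285). With A_70_P048191 of COL3A1 (-1.46 ± 0.45, adjusted p = 0.0365) these were the 3 of 19 members lower at that step, where 1.63% of all tested probes were. Whether the breed difference of MMP-1 varied with stage did not pass adjustment, at 0.331 and 0.158.

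At the other 4 successive steps, namely 85 to 100 d in Texel, 85 to 100 d in Ujumqin, 100 to 120 d in Ujumqin and 1 to 2 months, 0 of 19 members were called, where 1.98%, 0.843%, 0.787% and 3.24% of all tested probes were. At an unadjusted p under 0.05 with 2-fold, 2, 2, 4 and 0 members were found, where 3.86%, 2.79%, 2.52% and 6.08% of all tested probes were. The first 2 were TNC and COL3A1 on A_70_P048191, the next 2 were the MMP-1 probes, and the 4 were COL12A1, COL4A3, TNC and MMP-1 on A_70_P026537.

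After birth 0 of 9 lambs had either MMP-1 probe well above background. Since U135 was at or near background as well, the calls at 2 months stand for no measured fold, and both were lost under normexp correction, 75th percentile scaling or a floor of 16. In U135 replicate 1 the probe A_70_P026536 was left out as an outlier spot.

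**Figure D4:**
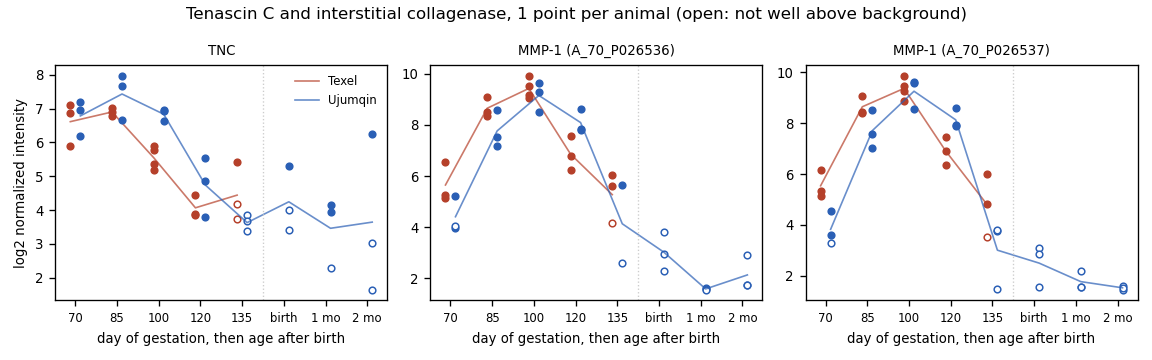
Log2 normalized intensity of TNC and of the 2 MMP-1 probes in each animal, by breed and stage, with lines through group means and open points where the probe was not well above background. TNC is higher at 70 and 85 d than at 120 and 135 d in both breeds, MMP-1 is highest at 100 d in both, and all postnatal MMP-1 points are open.

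No member passed the test between breeds at a single stage. Over the 5 fetal ages in order, 0 of 19 members were called by limma at each, where 0.117%, 0.0207%, 0.0138%, 0.0345% and 0.0207% of all tested probes were. At an unadjusted p under 0.05 with 2-fold, 3, 0, 1, 3 and 0 were, where 3.16%, 2.01%, 1.41%, 3.85% and 2.09% of all tested probes were. The 3 found at 70 d, and again those of 120 d, were COL4A3 and both MMP-1 probes. The 1 of 100 d was TNC, which is a member through the study's list for that stage, so that its count there is no test. The Welch test of the study's methods with the same threshold gave 1, 0, 1, 1 and 0.

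Texel minus Ujumqin, COL4A3 differed by -1.57 ± 0.62 in the youngest fetuses and by 1.17 ± 0.33 at 120 d, with limma adjusted p of 0.27 and 0.401. MMP-1 on A_70_P026537 differed by 1.71 ± 0.40 and -1.23 ± 0.35 at these stages, with limma adjusted p of 0.12 and 0.401, and its breeds did not overlap at either stage. The study's own lists hold this probe at these 2 stages, but they were made on these same arrays and add no independent evidence. COL4A1 on A_70_P047940 had differences of 0.75, 0.65, 0.18, -0.51 and -0.69 over the 5 stages. All T70 arrays lay on slide 1 and all U70 arrays on slide 2, so that breed and slide cannot be told apart at 70 d.

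Over the mean of the 5 stages 1 member passed adjustment, where 6.22% of all tested probes did. That was COL4A2, lower in Texel by 0.23 ± 0.07 (adjusted p = 0.0385), a difference of less than 2-fold. It did not pass with sex as a covariate or under 75th percentile scaling. Whether the breed difference varied between stages passed for 0 of 19 members, where 0.207% of all tested probes did, and for 5 at an unadjusted p under 0.05, where 13.5% did. These were COL4A3, 2 of the COL4A1 probes and both MMP-1 probes.

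Few other matrix genes were found by symbol on this array, and probes named otherwise were missed. Of 26 proteoglycans and glycoproteins 2 were found, DCN and BGN, on 3 probes. All 3 varied across stages in both breeds, where 52% and 79.7% of all tested probes did. DCN, or decorin, which coats collagen fibrils, differed between 135 and 70 d by -0.72 and -1.17 in Texel and by -0.88 and -0.93 in Ujumqin on its 2 probes. BGN, or biglycan, a close relative of decorin, differed by -1.38 and -1.46. Of the 3 probes, 2 were called lower in Texel and 1 in Ujumqin. The 17 genes of collagen folding and cross-linking had no probe under their symbols.

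Of 26 receptors and regulators 14 were found by symbol, on 21 probes. Of these probes 10 varied across Texel stages and 17 across Ujumqin stages, where 52% and 79.7% of all tested probes did. From 70 to 135 d, 3 were called lower and 2 higher in Texel, where 11.5% and 10.8% of all tested probes were. In Ujumqin 4 were called lower and 1 higher, where 10.8% and 10.4% were. TGFBR2, a receptor of transforming growth factor beta, rose by 1.34 and 2.20. Its ligands TGFB2 (-1.66 and -1.39) and TGFB3 on A_70_P031232 (-1.91 and -1.15) and the signal carrier SMAD2 (-0.84 and -1.05) had lower means at 135 d. ITGAV on A_70_P026057, an integrin chain, differed by 0.88 and 0.21.

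The 14 genes of matrix breakdown had no probe under their unhyphenated symbols. After the values had been seen, 9 of them were also looked up with the hyphen that the scanner files use, which gave MMP-2, MMP-13, MMP-14 and TIMP-1 on 7 probes. All 7 varied in both breeds, 6 were called lower at 135 than at 70 d in Texel and 4 in Ujumqin, and none higher. Of all tested probes 52% and 79.7% varied in Texel and Ujumqin, and 11.5% and 10.8% were lower at 135 d. MMP-14, which activates MMP-2 at the cell surface, changed by -1.74 and -1.67 on A_70_P031017, and MMP-2 by -1.49 and -1.15 on A_70_P026547.

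Marker lists also moved over the same stages. Of the 5 muscle fibre probes (3 of 22 genes), 0 were called from 70 to 135 d in either breed, with a median difference of -0.82 in Texel and -0.75 in Ujumqin, and 3 were called lower at 2 months than at 135 d, with a median of -1.22. Those 3 were both probes of MYOD1 (-1.33 and -1.22) and MYOG on A_70_P026227 (-1.26). MYLPF differed by -0.06 at that step and MYOG on A_70_P026226 by 0.24. At an unadjusted p under 0.05, 3 muscle fibre probes were lower from 70 to 135 d in each breed. The mean of the 5 adipocyte probes (3 of 6 genes) ran from 7.27 to 7.99 in T70 and from 8.51 to 8.96 in T135, and from 8.99 to 10.1 at birth. LPL, a lipase of fat and muscle, rose by 2.51 and 2.74 from 70 to 135 d on A_70_P029922, while LEP, the fat hormone leptin, had differences of -1.11 and -1.09 on A_70_P017126. The 6 leukocyte probes (3 of 8 genes) had a mean of 5.46 to 5.71 in U135 and 6.54 to 6.96 at birth. Of the red cell genes 1 of 5 was found by symbol, HBB. The mean of its 2 probes ran from 16.4 to 17.0 in U135 and from 9.32 to 11.7 in U2m. The part of these shifts in the collagen values was not tested.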

How the data were processed

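Processed intensities of 40 arrays were read from the scanner files, which the authors deposited as made by Agilent Feature Extraction 10.5 with background subtraction and spatial detrending and without scaling between arrays. The deposited table of log2 values, quantile normalized by the authors, was an alternative. Outlier spots were left out and probes averaged. Quantile normalization of the 40 arrays was followed by a floor of 1 and the log2 transform. The 14480 probes well above background on at least 1 array were fitted with limma 3.58.1 in R 4.3.3, with 13 groups in 1 fit for stages and with the arrays of 1 stage for breeds. The Benjamini-Hochberg adjustment covered all of these probes.

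A fold against a group with no array well above background compares the brighter mean with, per array, the higher of the probe's value and the lowest signal well above background. P-values measure the spread between animals. The replicate numbers did not pair fetuses. No 2 arrays were duplicates, the highest correlation being 0.993. The fits were tested on simulated data. Named genes were all members, the 5 probes most like TNC and like COL5A2, up to 8 matrix probes that varied in both breeds, and markers. The members and lists were chosen with earlier results of these data known. All 12 gene symbols were found in the RefSeq gene table of the sheep. Further software was Python 3.11.15, numpy 2.4.6, pandas 2.3.3 and matplotlib 3.10.9.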

Additional observations from a re-analysis of the deposited data

Results flagged for a closer look

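T100 was the only group of more than 3 animals, and in it COL2A1 in replicate 4 stood apart. It measured 7.56, where the other 3 fetuses had 6.93, 6.91 and 6.87, a gap of 0.914 of the group's range, and so beyond Dixon's limit for 4 values. The same fetus had the highest COL1A1 and COL12A1 levels of its group, at 10.63 and 14.35. Of 19 members examined in this group, this was the 1 so far apart, and chance gives about 1 in 20.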

How the results depend on the processing

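Slide was the choice that changed most. With slide as a fixed term, which leaves few shared slides to compare, the members that varied across Texel stages numbered 2 in place of 15, those lower and higher at 135 d numbered 0 in both breeds, calls over the 11 pairs of successive stages 6 in place of 21, COL4A2 between breeds was lost (0), and TNC changed by -3.37 and -4.31 without passing. In the same fit COL4A1 (A_70_P047940) in Texel reversed to 0.0851 and COL6A1 (A_70_P041682) from 135 d to birth to 0.44. The cause was not tested. Under normexp correction, which adds an offset of 50 to every probe, 0 members were higher at 135 d in either breed, 3 were lower in Ujumqin and 0 were lower at 2 months. At 2 months 3 were lower with a floor of 16 and 3 with array weights. Without a fold minimum 11 were lower at 2 months, 2 higher at 135 d in Ujumqin and 34 called over successive stages.

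The replicate block, with numbers whose deviations correlated from -0.31 to 0.10 and so did not pair fetuses, ended the breed call on COL4A2 (0 members) and changed no other count by over 1.5 times. The same call was lost (0) under 75th percentile scaling and with sex as a covariate. At the unadjusted threshold 3, 1 and 3 members differed between breeds at 70, 100 and 120 d by limma and 1, 1 and 1 by the Welch test of the methods. A fit with sex was not run at 120 d, where sex and breed are the same split. Slide as a fixed term within single stages, and normalization of the fetal arrays alone for postnatal differences, were not run.

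Leaving out single animals gave 12 to 16 members varying in Texel and 18 to 19 in Ujumqin, 6 to 9 lower at 135 d in Texel and 4 to 8 in Ujumqin (8 without U135 replicate 1), 1 to 1 higher in Texel and 0 to 1 in Ujumqin (0 without U70 replicate 2), and 18 to 25 calls over successive stages. It gave 1 to 6 lower at 2 months, with 1 without U2m replicate 1, 2 without U2m replicate 3 and 3 without U135 replicate 1. Breed differences numbered 0 to 1 at 100 d, where the 1 was TNC without U100 replicate 1, a member through the study's list for that stage and so no test, and 0 to 2 over the mean of 5 stages. TNC changed by -2.66 to -1.82 in Texel, -3.45 to -2.95 in Ujumqin and -1.29 to 1.01 at 2 months.

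Among 1404 values of single probes under an alternative, 1303 kept their side of an adjusted p of 0.05, 77 no longer passed it, 22 newly passed it, and 2 that had passed turned in sign. Values that passed in neither setting could also turn in sign and count among the 1303. With 3 animals in most groups, and with TNC, COL4A3, COL16A1 and MMP-1 near background in some groups, small differences in those dim probes rest on few arrays.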
